A study of Mus musculus with 30 samples.

Results

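Ribosome biogenesis genes encode the proteins that transcribe, modify, cleave and assemble ribosomal RNA. Here 36 of them were followed through 48 h of culture of mouse extraocular muscle, the striated muscle that turns the eyeball. They were selected as the probe sets of the Affymetrix A and B arrays whose platform gene symbol was a member of the set and nothing else, out of 18193 genes named in that way. The set had 76 probe sets (62 of type A and 14 of type B), and a gene was counted by its probe set with the highest mean over the 15 arrays of a type. A gene on both types was counted by its A array probe set, even where its B array intensity was higher, as for Tsr1 and Rrs1. On the A arrays 35 members were present, and all 35 passed the filter that left out probe sets with a mean intensity under 101. Dkc1 was on the B arrays alone. Total RNA was hybridised at 0, 4, 12, 24 and 48 h, with 3 arrays per time and type and 30 arrays in all. Strain, age, medium and treatment are not given in the labels, and neither is the event that set 0 h, nor whether the 3 replicates were separate cultures. The p-values below thus reflect no more than array-to-array spread, part or all of it possibly technical, and 3 arrays per time limit their precision. Each array had been scaled to a fixed mean, so every change is relative to the rest of the array, and fewer cells of a type cannot be told apart from less RNA per cell.

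Ribosome production begins in the nucleolus, where RNA polymerase I transcribes a long precursor of the ribosomal RNAs. Small nucleolar ribonucleoproteins (snoRNPs) modify that precursor at chosen bases, and large assemblies of processing factors fold and cut it into the RNAs of the small and the large subunit. In muscle, ribosome production is known to be high in dividing myoblasts and in growing fibres, and the transcription factor MYC is a known activator of many of these genes.

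Most members were below their 0 h level at 4 and 12 h and above it at 48 h. Of the 35 members on the A arrays, 31 lay below 0 h at 4 h, 34 at 12 h, 24 at 24 h and 11 at 48 h. These are 88.6%, 97.1%, 68.6% and 31.4% of them, against 48.8%, 47.4%, 50.8% and 46.0% of 7848 other genes. The members' median differences from 0 h at these times were -0.22, -0.22, -0.13 and 0.12 on a log2 scale. Those of all 13576 probe sets tested were 0.01, 0.00, -0.01 and 0.02. All differences are of log2(intensity + 16), the later time minus the earlier, and the constant understates changes of dim probe sets. A member was called only where limma's p-value, adjusted over all tested probe sets of its array type, was under 0.05. By that rule Npm1 was lower at 24 h than at 0 h, Wdr43 was higher at 48 h than at 24 h, and 7 members changed over time in an F-test across the 5 times. The other differences, though mostly of the same sign among members, did not pass for single genes.

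**Figure D1:**
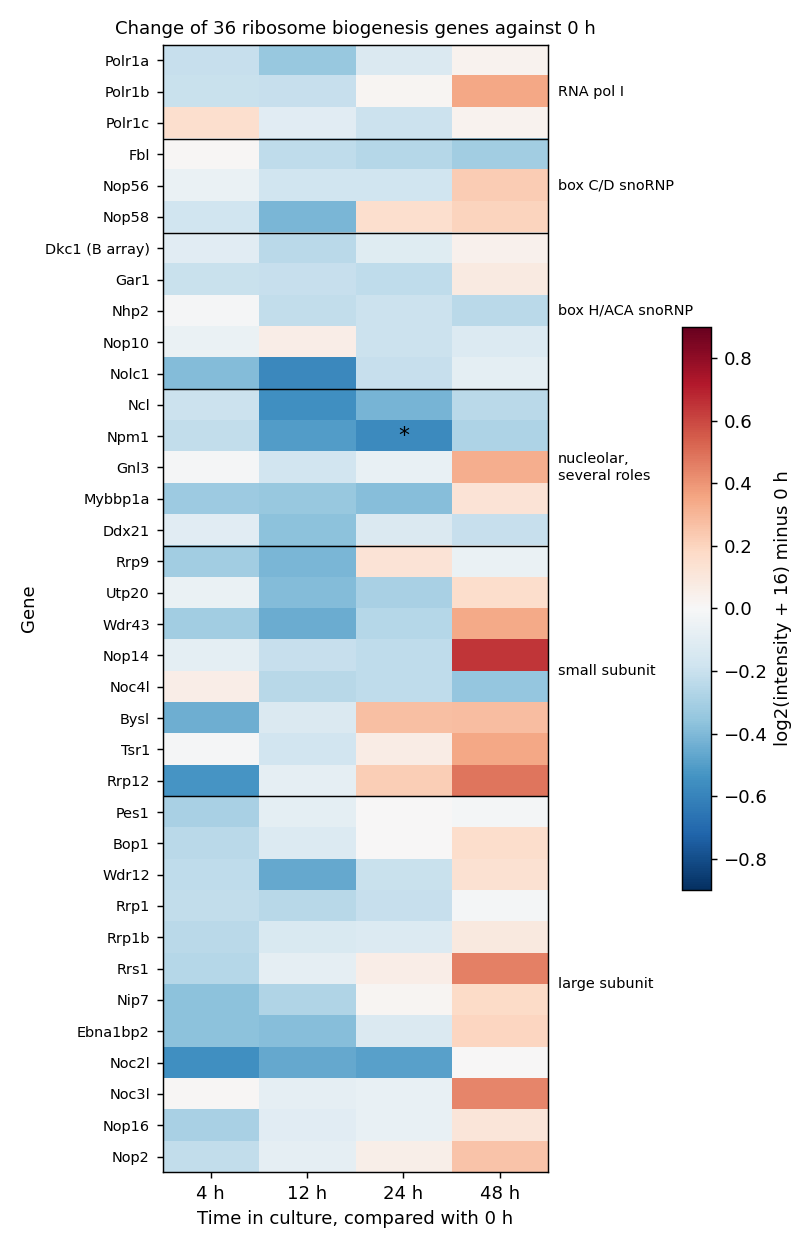
Difference of log2(intensity + 16) from 0 h (colour, blue below and red above) for the 36 genes (rows, grouped by role) at 4, 12, 24 and 48 h (columns), each from the means of 3 arrays. The columns at 4 and 12 h are mostly blue and that at 48 h mostly red, and the asterisk marks Npm1 at 24 h, the only difference from 0 h past an adjusted p of 0.05.

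The promoters of 4 members are shown because they hold a CACGTG, the E-box sequence that MYC with its partner MAX is known to bind, and because Wdr43 had the smallest F-test p of the set. The letters CACGTG, which read the same on both strands, were searched in windows of 300 bases, 250 before and 50 after each transcription start, in the promoter table of RefSeq (GRCm38.p6). Each sequence below runs 5′ to 3′ on the gene's strand, 120 bases before and 30 after the start, with the CACGTG in capitals. Wdr43 lies at chr17:71616095-71616244 on the plus strand, Nop2 at chr6:125131763-125131912 on the plus strand, Pes1 at chr11:3963855-3964004 on the plus strand and Tsr1 at chr11:74897960-74898109 on the plus strand.
Wdr43: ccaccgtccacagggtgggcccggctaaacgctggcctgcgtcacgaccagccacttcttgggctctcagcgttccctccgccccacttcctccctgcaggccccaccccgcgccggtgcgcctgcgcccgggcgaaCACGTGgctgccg
Nop2: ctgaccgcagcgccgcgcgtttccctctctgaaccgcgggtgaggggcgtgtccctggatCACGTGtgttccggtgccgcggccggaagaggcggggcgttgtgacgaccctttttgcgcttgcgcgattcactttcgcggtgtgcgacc
Pes1: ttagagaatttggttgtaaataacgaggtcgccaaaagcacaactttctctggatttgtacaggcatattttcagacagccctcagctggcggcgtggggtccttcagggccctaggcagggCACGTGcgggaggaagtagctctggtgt
Tsr1: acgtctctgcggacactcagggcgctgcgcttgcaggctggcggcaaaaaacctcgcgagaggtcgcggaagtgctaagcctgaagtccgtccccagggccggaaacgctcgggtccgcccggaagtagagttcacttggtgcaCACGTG

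In Nop2 the match began 60 bases before the start, and in Pes1, Wdr43 and Tsr1 at transcribed bases 3, 18 and 25. In Utp20 and Mybbp1a it began at transcribed bases 38 and 41, outside the stretch printed for the others. In all, 6 of the 31 member genes in the table held a match, or 19.4%. Of 26994 other genes 8.08% did, and of 6419 other genes that had passed the filter on the A arrays 12.5% did. A match describes these letters only, and the windows of the other 25 members say nothing of what binds there. Fbl, Npm1, Rrp12, Bop1 and Rrs1 were not in the table.

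At 4 h no member passed limma's threshold against 0 h, where 0.0295% of all A array probe sets did, and the smallest adjusted p of a member was 0.724. With no adjustment, 8 of 35 members were lower at p under 0.05 and 0 higher, that is 22.9% and 0.0% of the members against 2.77% and 3.24% of all probe sets. In 9 members, or 25.7%, all 3 arrays at 4 h lay below all 3 at 0 h, against 6.05% of all probe sets. Differences ranged from -0.55 in Noc2l, a factor of large subunit assembly, to 0.15 in Polr1c, a subunit that RNA polymerases I and III share. Most of the large subunit factors were on the low side at this time: 11 of 12 lay below 0 h, with a median of -0.25. That was not particular to them. Below 0 h were also 7 of 8 small subunit members and 5 of 5 nucleolar proteins with several roles. The same held for 5 of 5 members of the box H/ACA snoRNP (with Dkc1 from the B arrays), 2 of 3 of the box C/D snoRNP and 2 of 3 of RNA polymerase I.

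At 12 h Nop10 alone lay above 0 h (0.06 ± 0.13, SE), and the median over the 35 members was again -0.22. No member passed, where 0.368% of all A array probe sets did, and the smallest adjusted p of a member was 0.0668, for Npm1. With no adjustment 12 members were lower and 0 higher, which is 34.3% and 0.0% against 6.57% and 6.22% of all probe sets. In another count 12 members, also 34.3%, had values at 12 h that were all below those at 0 h, against 8.01%. The lowest differences were those of Nolc1 (-0.58 ± 0.18, adjusted p = 0.162), a chaperone of snoRNPs, and of nucleolin, Ncl (-0.55 ± 0.14, adjusted p = 0.0917). A single array decided the count past the adjusted threshold. Ncl and Npm1 had the highest of their 12 h values in 12 h replicate 3. Without it 3 members passed as lower at 12 h (Nolc1, Ncl and Npm1), against 0 with it. For the other counts no run without an array is given here. Against 4 h, 24 members were lower at 12 h and 11 higher, with a median of -0.10, and 0 passed in limma (0.295% of all probe sets did; with no adjustment 3 members were lower and 2 higher, 8.57% and 5.71%, against 6.86% and 4.65% of all probe sets). In the run without 12 h replicate 3 Ncl passed there, and without 4 h replicate 2 the median was 0.01. At 12 h against 4 h 68.6% of members were lower, against 45.5% of other genes.

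At 24 h Npm1 was lower than at 0 h and was the only member past the threshold in that comparison. Of all A array probe sets 5.56% passed there, 2.34% as lower. Npm1 had already stood at -0.50 at 12 h, and differed by -0.07 between 24 and 12 h. By position, 24 members lay below 0 h and 11 above. With no adjustment 6 members were lower and 0 higher, 17.1% and 0.0% against 9.89% and 9.68% of all probe sets, and in 6 members the 24 h values were all below the 0 h values, 17.1% against 12.7%. Both shares stood closer to those of all probe sets than at 12 h, which was not tested. Against 12 h, 26 of 35 members were higher at 24 h, with a median of 0.10. The share of members that were lower was 25.7%, against 52.4% of other genes. No member passed in that comparison (0.0884% of all probe sets did), and with no adjustment 3 were higher and 0 lower, 8.57% and 0.0% against 3.41% and 3.68%. Without 12 h replicate 3, 2 members, Ncl and Npm1, passed at 24 h against 0 h.

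At 48 h 24 members lay above 0 h and 11 below (19 and 16 with median scaling). The share below was 31.4%, against 46.0% of other genes. No member passed against 0 h, where 6.7% of all A array probe sets did. The smallest adjusted p was 0.0699, for Nop14. With no adjustment 7 members were higher and 2 lower, 20.0% and 5.71%, against 10.8% and 8.9% of all probe sets. Values did not overlap in 6 members as higher and in 3 as lower, 17.1% and 8.57%, against 13.5% and 10.5%. Single arrays changed the count here: Nop14 passed without 0 h replicate 2, Rrs1 without 0 h replicate 3 and Noc3l without 48 h replicate 2, so that 1 member passed in each of these runs.

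Between 24 and 48 h most members were higher at the later time, 29 of 35. The share of members that were lower was 17.1%, against 43.8% of other genes. The members' median was 0.21, against 0.03 for all probe sets. With no adjustment 11 members were higher and 0 lower, 31.4% and 0.0% against 6.83% and 4.55% of all probe sets. In 12 members, or 34.3%, all 48 h values were above all 24 h values, against 10.7%. Wdr43 rose (0.60 ± 0.12, adjusted p = 0.0261) and was the only member past the threshold, where 0.626% of all probe sets passed, 0.545% as higher. Its call was lost without any of the 24 h or 48 h arrays, with median scaling, with only the times compared and with the mean over a gene's probe sets, with adjusted p up to 0.136, and with only the times compared or the mean over a gene's probe sets the member that passed was Nop14. Median scaling put the median at 0.12 with 26 of 35 members higher (all probe sets -0.05), and that of 24 h against 12 h at 0.14 with 32 higher (all probe sets 0.04), so the order of the 2 medians turned (0.21 and 0.10 with the deposited scaling). Both Wdr43 and Nop14 passed without 0 h replicate 2 or 3 or 12 h replicate 3. The comparisons against 0 h share the 0 h arrays, and each pair of neighbouring steps shares the arrays of 1 time, so their counts are not independent of each other. Within a comparison the members share the same arrays too, so no count is of independent observations.

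**Figure D2:**
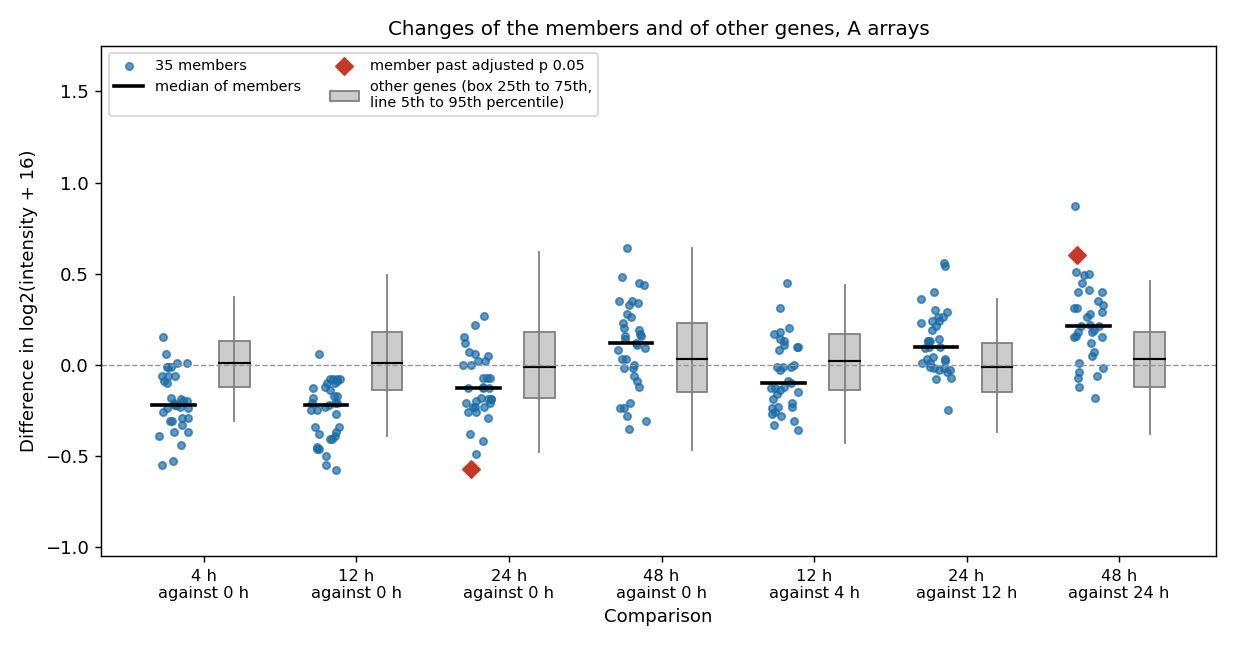
Differences of log2(intensity + 16) for the 35 members on the A arrays (blue points, 1 per gene, black bar at their median, red diamonds for members past an adjusted p of 0.05) and for 7848 other genes (grey box from the 25th to the 75th percentile, line from the 5th to the 95th) in 7 comparisons. The members' medians of -0.22 at 4 and 12 h lie below the boxes of the other genes, and that of 0.21 for 48 h against 24 h lies above its box.

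Seen by time of the extremes, no member had its lowest mean at 0 h, whereas 10 had it at 4 h, 15 at 12 h, 7 at 24 h and 3 at 48 h. Among the 7848 other genes of the A arrays the shares at these times were 22.5%, 20.4%, 15.6%, 21.3% and 20.3%. The highest mean was at 48 h for 23 of 35 members, against 27.3% of other genes, and at 0 h for 6 of 35, against 18.8%. In 24 members of 35 the mean lay below 0 h at 12 h, was higher at 48 h than at 24 h and was above 0 h at 48 h, which was so for 14.1% of other genes. The 6 of 35 members below 0 h at each later time were Nhp2, Nolc1, Ncl, Npm1, Ddx21 and Rrp1. That was no larger a share than the 18.8% of other genes. The distance between a member's highest and lowest mean was modest, with a median of 0.52 and a range of 0.24 to 1.01, against a median of 0.37 for other genes.

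The same shape showed in the single arrays. After each member's mean over the 15 arrays was subtracted, the median over the 35 members was 0.09, -0.04 and 0.22 on the 3 arrays at 0 h, -0.19, 0.03 and -0.17 at 4 h, -0.16, -0.20 and -0.07 at 12 h, 0.01, -0.01 and -0.12 at 24 h, and 0.19, 0.27 and 0.20 at 48 h. All 3 arrays at 12 h were below all 3 at 0 h. The 4 h arrays overlapped those of 0 h through replicate 2, and the 48 h arrays overlapped them through 0 h replicate 3. The pooled SD of these medians between arrays of a time was 0.095.

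**Figure D3:**
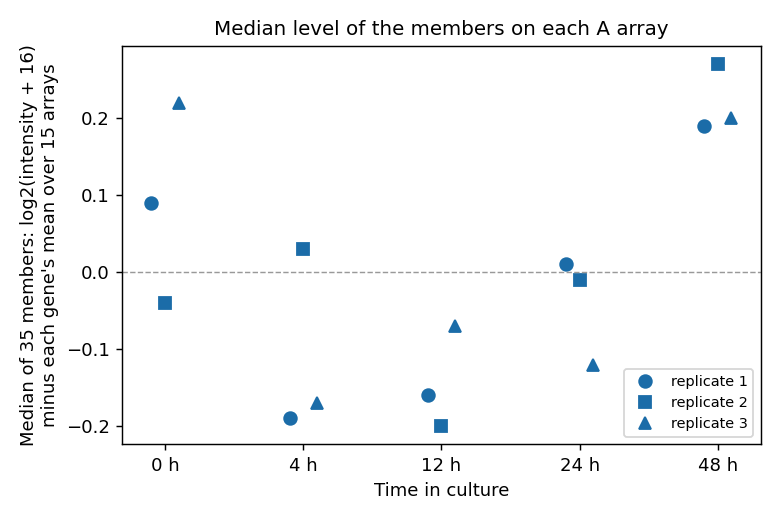
Median over the 35 members of log2(intensity + 16) minus each gene's mean over 15 arrays (vertical axis), for each A array at 0, 4, 12, 24 and 48 h (horizontal axis, equally spaced), with 1 symbol per replicate number. The 48 h arrays sit between 0.19 and 0.27 and the 12 h arrays between -0.20 and -0.07.

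Of the 35 members on the A arrays, 7 (20.0%) passed limma's F-test for any change across the times, against 7.59% of all probe sets and 8.55% of genes counted by 1 probe set, and 19 (54.3%) had an unadjusted p under 0.05, against 22.3% of all probe sets. Those past the adjusted threshold were Wdr43, Bysl, Rrp12 and Nop14 of the small subunit, Npm1 and Mybbp1a among the nucleolar proteins with several roles, and Rrs1 of the large subunit. The count became 2 without 4 h replicate 1, 3 without 4 h replicate 3 or 24 h replicate 1, 4 without 12 h replicate 1, 24 h replicate 2 or any of the 48 h arrays, and 10 without 12 h replicate 3. Wdr43 kept its F-test call in all 24 other settings and runs without an array, Bysl lost it in 1 (without 4 h replicate 1, adjusted p = 0.0575) and Npm1 in 5, among them the runs that left out 0 h replicate 2 or 24 h replicate 1. The calls of Mybbp1a, Rrp12, Rrs1 and Nop14 were the least steady. They were lost in 11 of 24 such runs for Mybbp1a, 11 of 23 for Rrp12, 10 of 24 for Rrs1 and 14 of 24 for Nop14. None of these 4 calls held without 4 h replicate 1 or 4 h replicate 3. Mybbp1a also lost its call without 0 h replicates 2 or 3, 12 h replicate 1, 24 h replicates 1 or 2 or 48 h replicates 1 or 2, and Rrp12 without 0 h replicate 1, 4 h replicate 2, 12 h replicate 1, 24 h replicate 2 or 48 h replicates 1 or 3. Rrs1 lost it without 0 h replicate 2, 12 h replicate 1, 24 h replicate 1 or 48 h replicates 2 or 3, and Nop14 without 0 h replicate 1, 12 h replicate 2 or any of the 24 h or 48 h arrays.

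Wdr43 is a WD-repeat protein of the small subunit processome, the assembly that forms on the newly made precursor. Its intensities were 1194, 1102 and 1083 at 0 h, 862, 1011 and 852 at 4 h, 755, 821 and 893 at 12 h, 874, 982 and 962.5 at 24 h, and 1335, 1390.4 and 1567 at 48 h. All values at 4, 12 and 24 h were below, and all values at 48 h above, every 0 h value. The differences from 0 h were -0.31, -0.45, -0.26 and 0.34 (each ± 0.12), with adjusted p from 0.107 to 0.756, and the F-test gave an adjusted p of 0.00223. Its other A array probe set differed by 0.56 between 48 and 24 h and did not pass in the F-test (adjusted p = 0.354).

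Nop14, a further processome protein, had intensities of 401, 574 and 346 at 0 h, 379, 496 and 351 at 4 h, 430.2, 401 and 290.5 at 12 h, 312, 409 and 378 at 24 h, and 572, 813 and 677 at 48 h. The 48 h arrays held the 3 highest values but for 0 h replicate 2, which lay just above the lowest of them. The difference at 48 h was 0.87 ± 0.20 against 24 h (adjusted p = 0.0673) and 0.64 ± 0.20 against 0 h (adjusted p = 0.0699), and the F-test adjusted p was 0.0417.

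Bysl, a factor of late small subunit maturation known from yeast as Enp1, had intensities of 986, 849 and 1016 at 0 h, 642, 719.7 and 719 at 4 h, 852, 934 and 811 at 12 h, 1252, 1338 and 896 at 24 h, and 1143, 1230.3 and 1099 at 48 h. The 4 h values were all below and the 48 h values all above those at 0 h, while those at 12 and 24 h overlapped them. Its differences from 0 h were -0.44, -0.13, 0.27 and 0.28 (each ± 0.14), and the F-test adjusted p was 0.0126. At 24 h, 2 of 3 arrays were above every 0 h value.

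Rrp12, a factor of small subunit export, was dim, with intensities of 261.5, 215 and 235 at 0 h, 154.5, 177 and 145 at 4 h, 239.9, 225 and 203 at 12 h, 365, 318 and 183 at 24 h, and 342, 282 and 390.2 at 48 h. As in Bysl, its 4 h values lay below and its 48 h values above all those at 0 h, and 24 h replicate 3 was the low array of its time. The 4 h difference was -0.53 ± 0.21 (adjusted p = 0.756), the 48 h difference 0.48 ± 0.21 (adjusted p = 0.207), and the F-test adjusted p was 0.0351. Its span of 1.01 between 48 and 4 h was the largest among the 35 members.

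Utp20, a long scaffold protein of the processome, had intensities of 725, 819 and 794 at 0 h, 717, 805 and 722 at 4 h, 527, 636 and 615 at 12 h, 553, 600.1 and 762 at 24 h, and 798, 968 and 851 at 48 h. Only the 12 h values were all below those at 0 h. It did not pass in the F-test (adjusted p = 0.0707) and was included, with Nip7 and Ncl, as a member with one of the next smallest F-test p-values. The remaining small subunit members had F-test adjusted p of 0.27 to 0.405. Of these, Tsr1, a factor of late maturation, stood at 0.35 ± 0.17 at 48 h, Rrp9, a protein of the U3 snoRNP, at -0.41 ± 0.23 at 12 h, and Noc4l, a partner of Nop14, at -0.35 ± 0.16 at 48 h. Over the 8 small subunit members the medians at 4, 12, 24 and 48 h were -0.20, -0.23, -0.08 and 0.31.

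Npm1, or nucleophosmin, is a protein of the outer zone of the nucleolus and a histone chaperone. Its intensities were 9729, 11003 and 9969.8 at 0 h, 9194, 8465 and 8708 at 4 h, 7283, 5920.1 and 8805.5 at 12 h, 6721, 6921 and 6989 at 24 h, and 8548, 8595.5 and 8178 at 48 h. Every later value was below every 0 h value, and the 24 h arrays lay within a narrow span. At 24 h Npm1 averaged 6877 ± 139, against 10230 ± 677 at 0 h (SD, n = 3 each), a difference of -0.57 ± 0.12 with a limma adjusted p of 0.00714. That call held in all 25 other settings and runs without an array, with adjusted p from 0.00178 to 0.0372. The other A array probe set of Npm1, nearly as bright, differed from 0 h by 0.04, -0.24, -0.39 and -0.06 at 4, 12, 24 and 48 h. It did not pass at 24 h (limma adjusted p = 0.0637), and it was not lower at 4 h.

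Ncl, or nucleolin, an RNA-binding protein of the nucleolus, had intensities of 9185, 7555 and 8898 at 0 h, 7707, 7525.5 and 7209.5 at 4 h, 5519, 4803 and 7372 at 12 h, 6038.5, 7473.5 and 5732 at 24 h, and 7198, 7121 and 7378 at 48 h. The values at 12, 24 and 48 h were all below those at 0 h. The differences were -0.55, -0.42 and -0.24 (each ± 0.14) and none passed, with adjusted p of 0.0917, 0.0905 and 0.368. Its 3 other A array probe sets differed at 12 h by -0.51, -0.88 and -1.28.

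Mybbp1a, a nucleolar protein that binds MYB, had intensities of 2459, 2754 and 2704 at 0 h, 1883, 2287 and 2111 at 4 h, 2057, 2328 and 1889 at 12 h, 2060.3, 1858 and 2167 at 24 h, and 3161.5, 3057 and 2452 at 48 h. The values from 4 to 24 h were all below those at 0 h, and those at 48 h overlapped them. It differed by 0.50 ± 0.13 between 48 and 24 h (adjusted p = 0.092), and its F-test adjusted p was 0.034. Gnl3, or nucleostemin, a GTP-binding protein of dividing cells, stood at 0.33 ± 0.13 at 48 h against 0 h, and the RNA helicase Ddx21 at -0.21 ± 0.24. Neither passed. The 5 nucleolar proteins with several roles had the lowest role medians at 12, 24 and 48 h, at -0.37, -0.38 and -0.21, and a median of -0.19 at 4 h.

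Rrs1, which helps to place the 5S ribosomal RNA in the large subunit, had intensities of 1519.9, 1643.5 and 1984 at 0 h, 1376, 1629.8 and 1293 at 4 h, 1496, 1499.5 and 1858 at 12 h, 1933, 1542 and 1881 at 24 h, and 2031.5, 2477 and 2551 at 48 h. The 48 h values were all above those at 0 h, and the others overlapped them. The 48 h difference was 0.45 ± 0.15 (adjusted p = 0.0724), and the F-test adjusted p was 0.0367. On the B arrays its probe set stood at 0.28 ± 0.18 at 48 h (0.19 without 0 h replicate 1) and did not pass.

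Nip7, a large subunit factor, had intensities of 1215, 999.9 and 1220 at 0 h, 890.2, 978 and 784 at 4 h, 920.3, 1076 and 848 at 12 h, 1246, 1266 and 982 at 24 h, and 1262.5, 1409 and 1186 at 48 h. Its 4 h values were all below those at 0 h, and the F-test did not pass (adjusted p = 0.083). Its other, dimmer A array probe set did pass (adjusted p = 0.0449), with 0.49 at 48 h. Pes1, Bop1 and Wdr12, which form the PeBoW complex of large subunit processing, differed at 4 h by -0.29, -0.24 and -0.23 and at 48 h by -0.02, 0.16 and 0.14. Noc3l stood at 0.44 ± 0.14 at 48 h (adjusted p = 0.0733) and Noc2l, the partner with which it acts in yeast, at 0.00 ± 0.18. The rRNA methyltransferase Nop2 stood at 0.26 ± 0.14, Ebna1bp2 at 0.19 ± 0.17, and Nop16, Rrp1b and Rrp1 at 0.11, 0.09 and -0.02. Over the 12 large subunit members the medians at 4, 12, 24 and 48 h were -0.25, -0.13, -0.07 and 0.15.

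**Figure D4:**
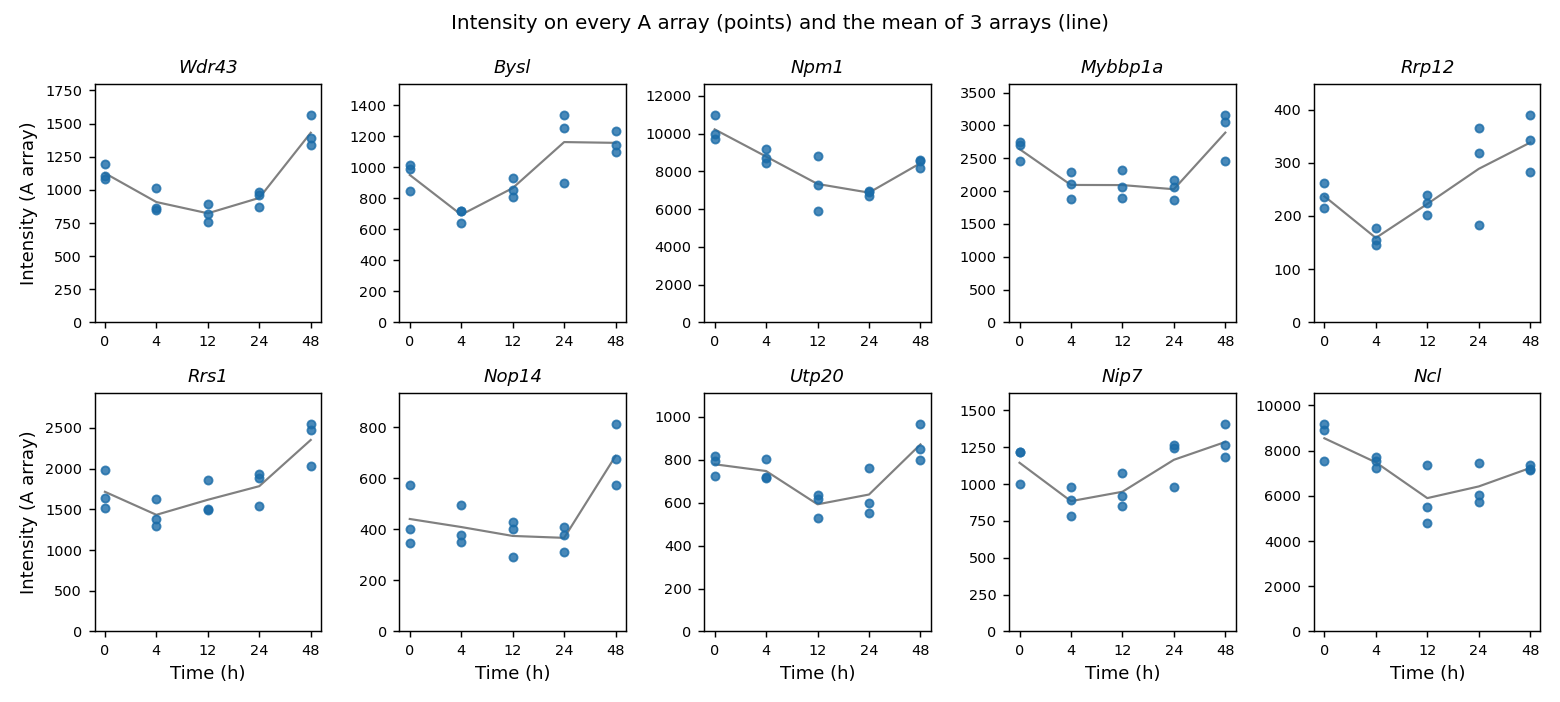
Intensity on every A array (points) and the mean of 3 arrays (line) for 10 members at 0, 4, 12, 24 and 48 h (horizontal axis, equally spaced; vertical axes start at 0 and differ between genes). Wdr43 and Nop14 have their highest values at 48 h, whereas every later value of Npm1 is below its 0 h values.

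Over all 15 arrays, no member of RNA polymerase I or of the snoRNPs passed in any of the 8 tests, though Nolc1 passed at 12 h and in the F-test without 12 h replicate 3, and Nop58 in the F-test without 0 h replicate 2. The 3 polymerase members were Polr1a and Polr1b, the largest subunits, and Polr1c, and their medians at 4, 12, 24 and 48 h were -0.20, -0.21, -0.13 and 0.03. Polr1b averaged 577 ± 119 at 48 h, against 448 ± 88.2 at 0 h (0.35 ± 0.17, adjusted p = 0.269). In the box C/D snoRNP, whose enzyme is the RNA methyltransferase fibrillarin, Fbl differed by -0.31 ± 0.18 at 48 h, and its partners Nop56 and Nop58 by 0.23 ± 0.17 and 0.20 ± 0.19. Another Nop56 probe set of the A arrays did pass in the F-test (adjusted p = 0.017), with -0.44 at 12 h and 0.31 at 48 h. In the box H/ACA snoRNP, which turns uridine into pseudouridine, Gar1, Nhp2 and Nop10 differed at 48 h by 0.08, -0.24 and -0.12, and their companion Nolc1 by -0.09.

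Dkc1, the pseudouridine synthase of the box H/ACA snoRNP, had B array intensities of 6987, 6806 and 9861 at 0 h, 6997, 9221 and 5948 at 4 h, 6882, 5532 and 7541 at 12 h, 6142, 8276 and 7367 at 24 h, and 8070.5, 7490.3 and 8358 at 48 h. All later times overlapped 0 h. The differences from 0 h were -0.10, -0.24, -0.11 and 0.04 (each ± 0.18), and the F-test adjusted p was 0.906, where 1.02% of all B array probe sets passed. One B array, 0 h replicate 1, carries the name of extraocular muscle in its title and that of leg muscle in its source field, and was used by its title. Without it the differences of Dkc1 were -0.17, -0.31, -0.18 and -0.04.

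For 7 members counted on the A arrays, a B array probe set also passed the filter. The sign of the difference from 0 h was the same on both types for 7 of 7 at 4 h, 6 at 12 h, 5 at 24 h and 5 at 48 h, and for 6, 6, 4 and 6 without the B array whose source field names leg muscle. Noc3l had 0.67 ± 0.17 at 48 h on the B arrays (adjusted p = 0.0871, or 0.194 without 0 h replicate 1), and Noc2l -0.43 ± 0.27 there (-0.48 without it), against 0.00 on the A arrays. A further 24 probe sets of the A arrays belonged to members and passed the filter without being the brightest of their gene. Of these, 19 lay below 0 h at 4 h, 18 at 12 h, 19 at 24 h and 12 at 48 h, and 20 were higher at 48 h than at 24 h. They share their arrays and genes with the counted probe sets. Of the counted probe sets 6 carry the suffix that Affymetrix gives to sets that can match more than a single gene (Polr1c, Fbl, Nop56, Gar1, Nhp2 and Tsr1), so their values may include a relative's.

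The members did not all move alike across the arrays. Across the 15 A arrays, the log2 values of Ebna1bp2 had the highest Pearson correlation with the mean of the other members, at 0.91, followed by Wdr43 and Wdr12 at 0.86. Npm1 was at 0.35, Nhp2 at 0.28, Fbl at 0.23 and Nop10 and Noc4l at 0.02. The points share their arrays and any deviation of a whole array, and no test was made. A dimmer A array probe set of Ebna1bp2 went the other way from the counted one and did not pass. It stood at 0.47 and 0.62 (each ± 0.26) at 4 and 12 h against 0 h, where the counted one stood at -0.37 and -0.38. Among 7716 genes outside the set and the related lists, those with the highest correlation with the members' mean were Timm8a1 (0.899), Pdcd2 (0.895), Lamb1 (0.882), Prmt3 (0.876), Gpr137b-ps (0.872), Nmt2 (0.863), Nudt5 (0.857) and Plk2 (0.841). Timm8a1 averaged 2114 ± 392 at 0 h, 1894 ± 175 at 4 h, 1801 ± 336 at 12 h, 1939 ± 227 at 24 h and 2541 ± 223 at 48 h.

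Other genes of ribosome production, pooled over their lists, had medians of the members' signs, which was not so in each list. Of 134 such genes in 5 lists, 127 were measured, and 88 of them lay below 0 h at 4 h, 88 at 12 h, 81 at 24 h and 47 at 48 h. Of the 7848 genes on the A arrays outside the set, 48.8%, 47.4%, 50.8% and 46.0% lay below 0 h at these times. The medians of the 127 were -0.09, -0.13, -0.08 and 0.06, and at 48 h against 24 h 0.18. The polymerase I list had a median of 0.05 at 4 h (2 genes below 0 h and 6 above), and the exosome list of 0.00 at 48 h (7 and 6). The F-test called 8 of the 127, or 6.30%, no more than the 7.59% of all A array probe sets, and 35, or 27.6%, had an unadjusted p under 0.05, against 22.3%. Of the 127 genes 107 were read on the A arrays, and 1.02% of all B array probe sets passed. The list of 47 small subunit genes held 3 of these, and the list of 50 measured large subunit genes 5. In limma 0 of 8 measured polymerase I genes, 0 of 9 snoRNP genes and 0 of 13 genes of the rRNA exosome passed it, and 0, 2 and 2 of them had an unadjusted p under 0.05.

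Aatf, a small subunit factor also known as a partner of RNA polymerase II, had intensities of 703, 571 and 743 at 0 h, 677, 561 and 612 at 4 h, 466, 492 and 475 at 12 h, 781, 863 and 680.2 at 24 h, and 894, 911 and 843 at 48 h. Its 12 h values were all below and its 48 h values all above those at 0 h (F-test adjusted p = 0.0034). Mak16, of the large subunit, averaged 1399 ± 132 at 0 h, 1212 ± 85.7 at 4 h, 1071 ± 31.2 at 12 h, 1272 ± 128 at 24 h and 1721 ± 39.9 at 48 h (F-test adjusted p = 0.00901). Ftsj3, an RNA methyltransferase of large subunit processing, differed by -0.86 ± 0.19 at 12 h (adjusted p = 0.0582) and passed in the F-test (0.0234), as did Wdr74 and Rsl1d1 of the large subunit and Utp4 and Mphosph10 of the small subunit. Aatf and Mak16 kept their F-test calls in all other settings and runs, whereas calls were lost in 19 of 24 for Mphosph10, 13 for Utp4, 11 for Rsl1d1 and 5 each for Ftsj3 and Wdr74.

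Against 0 h, Ngdn of the small subunit list was higher at 48 h (0.40 ± 0.11, adjusted p = 0.0418), a call lost in 13 of 25 other settings and runs. In the large subunit list 2 of 50 measured genes were higher at 48 h, Nle1 (0.65 ± 0.15, adjusted p = 0.0119) and Zfp622 (0.59 ± 0.15, adjusted p = 0.0238). Eif6, a factor that keeps the subunits apart, was lower at 24 h (-0.42 ± 0.11, adjusted p = 0.0363). Nle1, Zfp622 and Eif6 were named after their values were seen, and how steady their calls were is not reported here. Of the 127 measured genes of the lists, 3 passed at 48 h against 0 h and 1 at 24 h. Of all A array probe sets 6.7% and 5.56% passed in these comparisons, so the lists held no excess of calls.

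**Figure D5:**
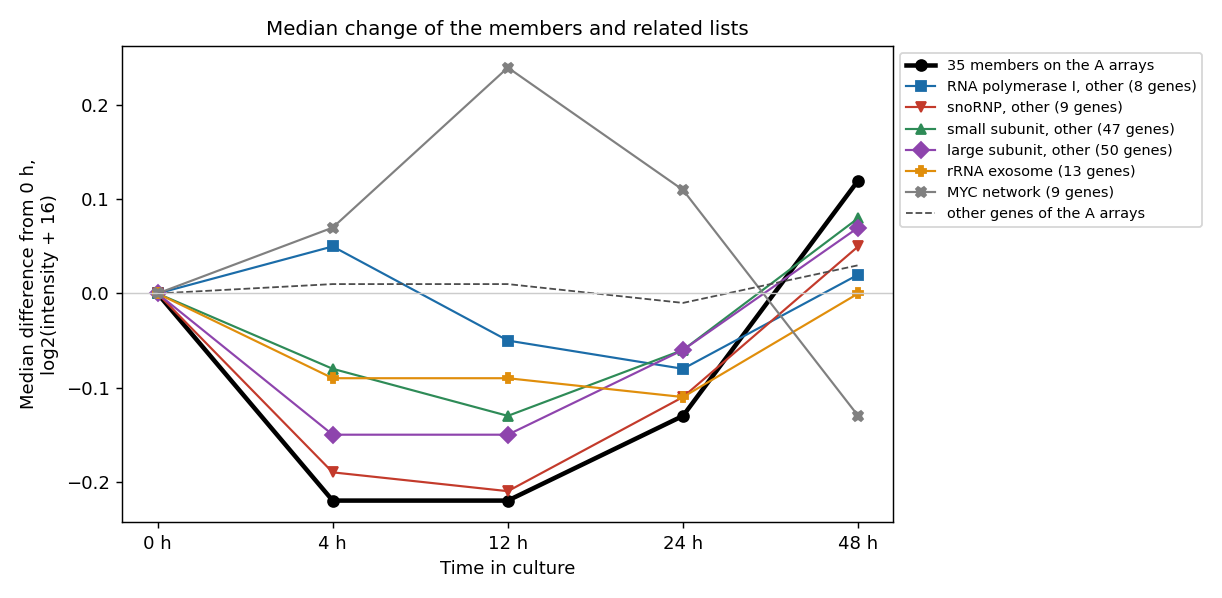
Median difference from 0 h in log2(intensity + 16) (vertical axis) at 0, 4, 12, 24 and 48 h (horizontal axis, equally spaced) for the 35 members (thick black), 6 related lists (coloured, with their number of measured genes) and the other genes of the A arrays (dashed). The members run lowest at 4 and 12 h, at -0.22, and highest at 48 h, at 0.12. The MYC network list holds Myc, Mycl, Max, Mlx and antagonists such as Mxi1, so its median stands for no single role. That median is 0.24 at 12 h (5 genes above 0 h and 4 below) and -0.13 at 48 h, both the values of Mlx.

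Myc, whose protein is a known activator of ribosome biogenesis genes, was measured on the same arrays. Its intensities were 926, 708 and 1222 at 0 h, 671.5, 875 and 622 at 4 h, 738, 551 and 742 at 12 h, 901.5, 1068 and 682 at 24 h, and 1276, 1113 and 1835 at 48 h. The groups overlapped in part, and no single difference from 0 h passed (-0.37, -0.46, -0.09 and 0.56, each ± 0.22), though the F-test did (adjusted p = 0.0378). That call was lost in 12 of 24 other settings and runs, among them without 0 h replicate 1, 4 h replicates 1 and 3, 12 h replicates 1 and 2, 24 h replicate 1 and 48 h replicates 1 and 3. Mxi1, which competes with MYC for MAX, fell at 24 h, when it averaged 277 ± 20.9, against 412 ± 28.1 at 0 h (-0.55 ± 0.13, adjusted p = 0.021). Its call was lost in 6 of 25 other settings and runs: without 0 h replicate 1 or 3 or 24 h replicate 1, with median scaling, with only the times compared and with the mean over a gene's probe sets. Of 9 measured genes of the MYC network these were the 2 that passed in the F-test.

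Markers of muscle and of other cells were read on the same A arrays. All 9 muscle markers passed the filter, and their summed intensity per array ran from 64026 to 82866 at 0 h, 53475 to 87322 at 4 h, 70556 to 90782 at 12 h, 66194 to 84117 at 24 h and 63366 to 73032 at 48 h. The sums hide unlike directions. Myog, Myod1, Des, Actc1 and Chrna1 averaged lower at 48 h than at 0 h, and Acta1, Ckm, Myh3 and Tnnt2 higher. The arrays of these times overlapped for Myog, Actc1, Acta1 and Ckm. Myod1 averaged 4412.7 at 48 h, against 7444.1 at 0 h, and Tnnt2 8904.3, against 6438.7. Probe sets of Myod1, Tnnt2 and Ckm on the B arrays went the other way. They averaged 270.5, 1213.6 and 907.3 at 48 h, against 229.1, 1661.9 and 1064.3 at 0 h, where 1 array has leg muscle in its source field. Those of Myod1 and Tnnt2 overlapped. Of 6 fibroblast markers 1 passed (sums of 399 to 695 at 48 h and 290 to 493 at 0 h), of 4 endothelial markers 1 (251 to 363 at 48 h and 222 to 366 at 0 h), and of 5 macrophage markers 2 (403 to 682 at 0 h, 259 to 334 at 4 h and 354 to 556 at 48 h). Among the fibroblast genes Col1a1 averaged 169.8 at 48 h, against 34.6 at 0 h, and Dcn 11.2, against 12.7. Other probe sets of Dcn and Pdgfra, on the B arrays, passed the filter there, with means of 320.8 and 198.1 at 48 h, against 359.7 and 254.1 at 0 h. Of 4 Schwann cell and neuron markers 3 passed, and their sums were 584 to 649 at 0 h, 449 to 490 at 12 h, 386 to 449 at 24 h and 462 to 546 at 48 h. Within that list the markers differed in direction: Nefm averaged 44.2 at 48 h, against 273.4 at 0 h, and Tubb3 277.2, against 138.8. Some defining markers of the other cells were dim on the A arrays: at 0 h Ptprc of leukocytes averaged 21.0, S100b of Schwann cells 24.4 and Pecam1 of endothelium 38.1. Others of the same lists passed the filter and were brighter. At 0 h Csf1r and Adgre1 of macrophages averaged 212.0 and 146.1, Kdr of endothelium 145.2 and Mbp of Schwann cells 174.6. The macrophage sums, like most members, were lower at 4 h than at 0 h, but at 12 h they were 347 to 666. The Schwann cell and neuron sums lay below those at 0 h at 12, 24 and 48 h. The endothelial sums at 4 h were 198 to 272, which overlapped those at 0 h. The part of these cells in the result was not tested. The ratio of 3′ to 5′ signal for Gapdh, a measure of RNA integrity, was 0.762 to 0.887 on the A arrays, and each array correlated with the others of its time at 0.962 to 0.979.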

How the data were processed

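Per the labels, RNA was measured by a standard Affymetrix protocol. Software, background correction and summary method: not given in the sources used here. The deposited values are linear intensities as the authors gave them, 1 per probe set. Their trimmed mean (2% left out at each end) was 500.2 on every A array and 500.1 on every B array, so levels of the 2 types were not compared. Gene symbols came from the platform annotation. Control probe sets were dropped, and so were those with a mean under the 40th percentile (intensities of 101 for A and 199.6 for B). With limma 3.58.1 (R 4.3.3; lmFit, eBayes with trend), a mean per time was fitted to log2(intensity + 16) over the 15 arrays of a type, leaving 10 residual degrees of freedom. Benjamini-Hochberg adjustment ran over 13576 A or 13507 B probe sets. Values on every array are given for members past the threshold in any test and the next by F-test p up to 10. From related lists, genes past the F-test or at 48 h against 0 h are named, up to 4 each, and the 8 genes most like the members' mean. Members and lists were chosen with earlier results of these data known. Promoters are from RefSeq. Alternatives were 2 scalings, 2 constants, 2 filters, no trend, the replicate block, only the times compared, the mean over a gene's probe sets, and each array left out.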

Additional observations from a re-analysis of the deposited data

How the results depend on the processing

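The signs of the members' median differences at 4, 12, 24 and 48 h against 0 h held under all settings tried, but median scaling, under which the median of all probe sets at 48 h was -0.08, against 0.02, left 0.02 for the members (16 members below 0 h and 19 above, against 11 and 24). Runs without 1 array gave medians of -0.30 to -0.16 at 4 h, -0.31 to -0.17 at 12 h, -0.18 to -0.07 at 24 h and 0.06 to 0.16 at 48 h against 0 h, -0.15 to 0.01 at 12 h against 4 h, 0.04 to 0.13 at 24 h against 12 h, and 0.15 to 0.29 at 48 h against 24 h. Counts of members past the threshold were less steady. At 48 h against 0 h the count was 1 with the mean over a gene's probe sets (Noc3l). At 48 h against 24 h it was 0 with median scaling, and stayed at 1 with only the times compared and with the mean over a gene's probe sets, where the member was Nop14 and not Wdr43. Over time it was 2 with median scaling, 3 with no filter and 3 with no intensity trend, against 7. Without 1 array it ran from 0 to 3 at 12 h against 0 h, 1 to 2 at 24 h, 0 to 1 at 48 h, 0 to 1 at 12 h against 4 h, 0 to 2 at 48 h against 24 h, and 2 to 10 over time. The cause of these shifts was not tested. Whether the replicate numbers pair the arrays is not given in the labels, and the main fit did not pair them. On the A arrays same-numbered deviations correlated at -0.363 to 0.421, with 10 of 30 pairs over 0.1. Their median was -0.001, and that of arrays with unlike numbers was also -0.001. These values cannot settle whether some arrays shared a preparation. With the replicate block 1 member passed at 48 h against 0 h (Nop14), 2 at 48 h against 24 h (Wdr43 and Nop14) and 7 over time. The SE of a difference ran from 0.11 to 0.24 over the members, and 3 arrays per time limit what could pass.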
